A study of Danio rerio with 63 samples.

Results

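Transcripts of the long-chain acyl-CoA synthetase family were followed through the brain regions of cyp19a1b mutant and WT zebrafish. The members were taken by symbol. Of 8 symbols (acsl1a, acsl1b, acsl3a, acsl3b, acsl4a, acsl4b, acsl5 and acsl6), 7 had a row among the 15418 genes of the count table, and acsl6 was not analysed here. The genes acsl4a and acsl1a were selected on measured values, their differences between mutant and WT fish, which varied by region in these same libraries. Their values are therefore given as a description with standard errors, and no test is attached to them. Of the other 5 members with a row, acsl1b, acsl3b and acsl4b passed the low-count filter in at least 1 region and were tested, and acsl3a and acsl5 were too rare for a test.

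Long-chain acyl-CoA synthetases are the enzymes that join a free long-chain fatty acid to coenzyme A, with ATP as the energy source. Only the resulting acyl-CoA can be burned in mitochondria or built into triglycerides, phospholipids and cholesteryl esters, so these enzymes stand at the entry of almost every route a fatty acid can take in a cell. In mammals, ACSL1 feeds oxidation in heart, muscle and fat, ACSL3 sits on the endoplasmic reticulum and on growing lipid droplets, ACSL4 prefers arachidonic acid and other polyunsaturated fatty acids and sets how much of them reaches membrane phospholipids, and ACSL5 is best known from the intestine. Zebrafish carry pairs of copies, named a and b, of several of these genes, and acsl4a has a described role in dorsoventral patterning of the zebrafish embryo.

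The mutant fish carried a disrupted cyp19a1b gene, which codes for brain aromatase, the enzyme that makes estrogens from androgens in teleost radial glia. The line was made with TALENs, which left a short deletion early in the coding sequence, and both mutant and WT fish were adults, the WT of the AB strain. The groups were mutant males (5 pools), WT males (6 pools), mutant females (4 pools) and WT females (6 pools), each pool holding 3 fish of the same sex and genotype. RNA came from the olfactory bulb (OB), the telencephalon (Tel) and the hypothalamus (Hypo), which gave 63 libraries. Equal pool codes of a sex and genotype were read as the same pool in all 3 regions, which the labels do not state. Transcripts were counted at their 3′ end by BRB-seq, in which each captured molecule carries a unique molecular identifier (UMI), so that a molecule is counted once whatever the length of its transcript. Levels are given in CPM, the count of a gene relative to the total of its library after TMM scaling, a correction for library composition.

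Some libraries did not look like their labels, and this touches the results below. The libraries labelled OB had little of the forebrain markers eomesa (median 1.01 CPM in the libraries labelled OB, 569 CPM in the Tel) and neurod6b (5.70 and 255 CPM), of the radial glial fabp7a (156 and 4434 CPM) and of the neuronal snap25a (330 and 3659 CPM). The forebrain genes foxg1a (55.8 and 197 CPM) and tbr1b (27.1 and 152 CPM) were present there at lower levels than in the Tel. They were instead rich in the macrophage and microglia genes apoeb (12454 and 520 CPM) and cd74a (4173 and 429 CPM), in the olfactory sensory neuron gene ompa (239 and 11.7 CPM) and in the epithelial genes epcam (1925 and 20.9 CPM), cdh1 (1923 and 12.5 CPM) and krt5 (2047 and 28.0 CPM). They are therefore called the libraries labelled OB throughout. In the hypothalamus oxt had a median of 689 CPM, against 13.2 CPM in the Tel, and the forebrain gene foxg1a 6.20 CPM against 197 CPM. The other genes of the hypothalamus list were mixed. Higher in the hypothalamus than in the Tel were avp (41.4 and 0 CPM), pomca (15.7 and 0 CPM), agrp (15.3 and 0 CPM) and trh (45.1 and 32.8 CPM). Higher in the Tel were sst1.1 (241 and 1008 CPM) and nkx2.1 (5.76 and 24.3 CPM), and hcrt had a median of 0 CPM in both. In the Tel, pool A1 of the WT males held 11051 CPM of epithelial transcripts (6 genes summed, a list chosen after values were seen), against 54.5 to 368 CPM in the other 5 WT male pools. Pool A1 of the mutant males held 49.5 CPM of cyp19a1b in the Tel and 93.7 CPM in the hypothalamus, against 938 to 1367 CPM and 475 to 1026 CPM in the other mutant male pools. Pool B2 of the mutant males held 1635 CPM of the hypothalamic neuropeptide gene oxt in the Tel, against 0 to 10.6 CPM in the other mutant male pools. Without these pools, each left out in turn, the calls given below for acsl1b and acsl3b did not change, except that of acsl3b between the libraries labelled OB and the hypothalamus of mutants, which was lost without pool B2.

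Mutant libraries were shallower, with 21444 to 455518 UMIs (median 178541), against 37825 to 1033008 UMIs (median 465768) in WT libraries. Libraries of mutant females had medians of 79076 UMIs in the libraries labelled OB and 66680 UMIs in the Tel. Those of WT females had 275347 and 353181 UMIs. The targeted gene cyp19a1b was not called different between genotypes in any region or sex by edgeR's quasi-likelihood test. Its medians in the Tel were 1007 CPM in mutant females and 1740 CPM in WT females, and 1001 CPM in mutant males and 1319 CPM in WT males. Counting at the 3′ end reads outside the deleted stretch and therefore does not check the genotype labels.

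The family's transcripts came mostly from acsl1b, acsl4a, acsl1a and acsl3b. Over all 63 libraries acsl1b gave 5740 UMIs, acsl4a 3373, acsl1a 2350 and acsl3b 1726, while acsl4b gave 445, acsl5 43 and acsl3a 22. The low-count filter of edgeR left 5 members for testing in the libraries labelled OB (acsl1a, acsl1b, acsl3b, acsl4a and acsl4b) and 4 in the Tel and the hypothalamus, where acsl4b did not pass.

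Among WT fish acsl1b was the leading transcript of the family in all 3 regions. It took 27.6% of the family's 1028 UMIs in the Tel of mutants and 46.9% of 3191 UMIs in the Tel of WT fish. In the hypothalamus its share was 31.9% of 1305 UMIs in mutants and 47.7% of 4502 UMIs in WT fish. The share of acsl4a, which was chosen for its differences between genotypes, was 36.1% in the Tel of mutants and 20.7% in the Tel of WT fish. In the hypothalamus it was 36.2% in mutants and 23.3% in WT fish. The shares lay closer in the libraries labelled OB, at 34.1% in mutants and 39.0% in WT fish for acsl1b and at 23.9% and 21.9% for acsl4a. These shares sum the UMIs of all pools, so that deeper pools weigh more, and they are given as a description.

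**Figure D1:**
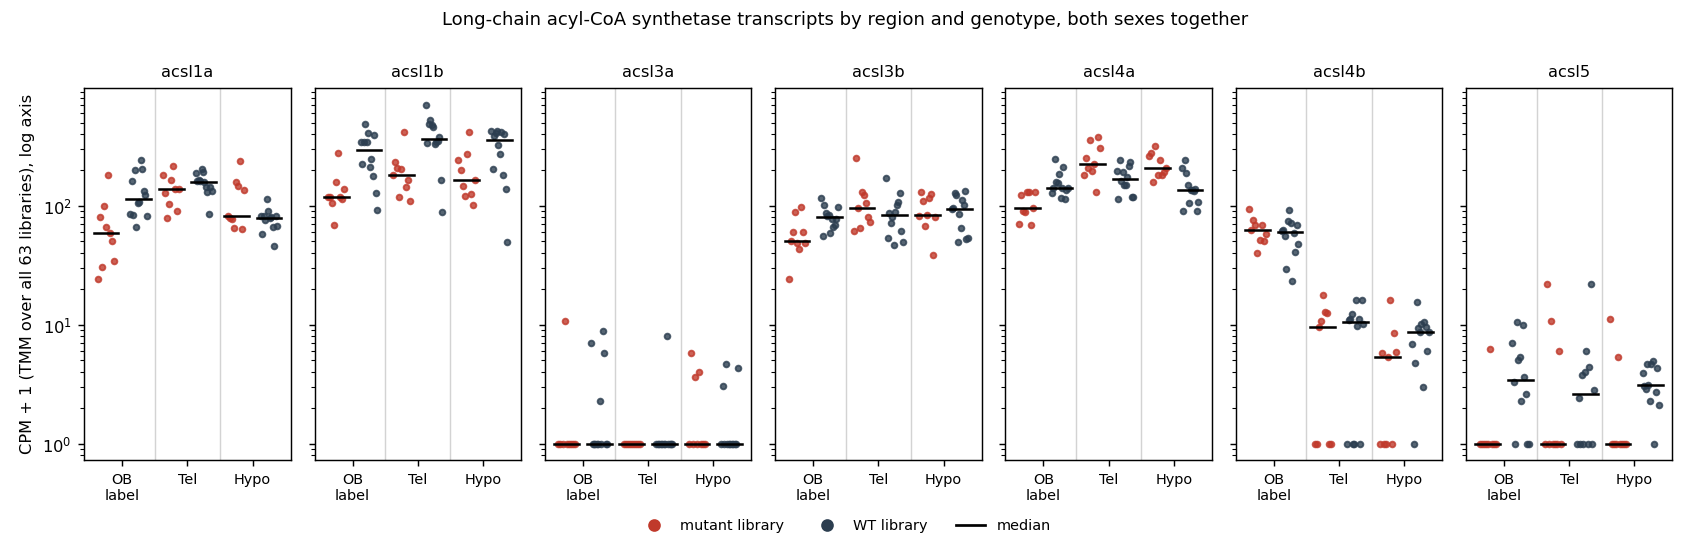
Levels of the 7 synthetases in every library, in CPM + 1 on a log axis, scaled by TMM over all 63 libraries. Each point is a library of 3 fish (9 mutant and 12 WT libraries in each region, both sexes together), with mutants left of WT and the median as a bar. For acsl1b the medians were 181 CPM in mutants and 364 CPM in WT fish in the Tel, and acsl4b stood at 61.3 and 58.9 CPM in the libraries labelled OB but under 10 CPM at the median in the other regions.

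On the scale set over all 63 libraries, the order of the members in WT fish was acsl1b, acsl4a, acsl1a, acsl3b and acsl4b in the libraries labelled OB, where the medians were 294, 140, 113, 78.6 and 58.9 CPM. In the mutants the order there was acsl1b, acsl4a, acsl4b, acsl1a and acsl3b, with 116, 94.0, 61.3, 58.1 and 49.1 CPM. The ranges of neighbours in these orders overlapped. In the hypothalamus acsl4a led in the mutants, at a median of 207 CPM (156 to 314 CPM over 9 libraries), with acsl1b at 163 CPM (100.2 to 418 CPM). In WT fish acsl1b led there, at 356 CPM (48.4 to 427 CPM over 12 libraries), with acsl4a at 134 CPM (89.7 to 242 CPM).

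The acsl1 pair comes first. Transcripts of acsl1b fell in mutant females in the libraries labelled OB, to 102 ± 28.8 CPM (SD, n = 4) against 308 ± 76.0 CPM in WT females (SD, n = 6). In the Tel and the hypothalamus the fitted differences in females had the same sign but did not pass the threshold, and in males none did. This was the only call between genotypes among the 3 members that were tested. A call required at least 1.5-fold and an adjusted p no higher than 0.05 in edgeR's quasi-likelihood test, with p-values adjusted by Benjamini-Hochberg over every gene tested in that region. By that rule 2.59% of the 4520 genes were called between mutant and WT females in the libraries labelled OB. Lower in mutants were 2.35% of the 4520 genes, which made up 106 of the 117 calls. Over both sexes and all 3 regions, 14 tests between genotypes were made on these 3 members, of which 1 was called and 3 had an unadjusted p of 0.05 or less.

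The OB-labelled libraries held acsl1b at 135, 107, 102 and 65.0 CPM in the 4 pools of mutant females (A1, A2, B1 and C1), against 188 to 417 CPM with a median of 297 CPM in WT females. All 4 mutant pools lay below every WT pool. A separation of all pools, in either direction, was shown by 4.8% of the genes tested there. The log2 fold change was -1.64 ± 0.40 (SE, edgeR, adjusted p = 0.0201), with a 95% interval of -2.42 to -0.87. The mutant values rest on 5 to 19 UMIs a library and the WT values on 57 to 102. The call was lost, with the same sign, without any of the mutant pools A2 (edgeR, adjusted p = 0.0930), B1 (0.0600) or C1 (0.0914), and with counts thinned to a common depth (0.110) or low-total libraries left out (0.0912). Over 32 alternatives the adjusted p lay between 0.000177 and 0.110 and the log2 fold change between -1.82 and -1.06.

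In the Tel, acsl1b stood at 226, 268, 226 and 126 CPM in mutant females, against 353 to 750 CPM with a median of 507 CPM in WT females. Again all 4 mutant pools lay below every WT pool, on 6 to 24 UMIs a library in mutant females and 96 to 239 in WT females. All pools lay apart, in either direction, for 6.31% of the genes tested in the Tel. The log2 fold change of -1.40 ± 0.41 (SE) missed the threshold (edgeR, adjusted p = 0.0754), and its 95% interval was -2.21 to -0.59. It passed in 7 of 32 alternatives, at an adjusted p of 0.000599 without the low-count filter, 0.00362 with only the groups compared in the fit, 0.0126 with the pool code as a replicate block, 0.0160 with the pool letter as a block, 0.0242 with DESeq2, 0.0272 without WT male pool C2 and 0.0341 without mutant male pool B1.

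In the hypothalamus, where libraries were deepest, acsl1b stood at 265, 212, 158 and 128 CPM in mutant females, against 215 to 452 CPM with a median of 419 CPM in WT females. Here 3 of the 4 mutant pools lay below every WT pool, and all 4 lay below the WT median. The log2 fold change was -1.06 ± 0.44 (SE, edgeR, adjusted p = 0.275), with a 95% interval of -1.92 to -0.20. It passed in 1 of 33 alternatives, with only the groups compared in the fit (adjusted p = 0.0122).

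Male pools of both genotypes overlapped in all 3 regions. The libraries labelled OB gave 131, 228, 107, 99.1 and 119 CPM in mutant males (A1, B1, B2, C1 and C2), against 73.3 to 320 CPM with a median of 160 CPM in WT males. The Tel gave 212, 443, 155, 177 and 116 CPM in mutant males, against 89.6 to 441 CPM with a median of 354 CPM in WT males. The hypothalamus gave 291, 440, 134, 105 and 175 CPM in mutant males, against 50.8 to 421 CPM with a median of 237 CPM in WT males. Pool B1 was the highest mutant male pool in each region, and among WT males the 2 pools with the letter C were low, at 103 and 73.3 CPM in the libraries labelled OB, 171 and 89.6 CPM in those of the Tel and 144 and 50.8 CPM in those of the hypothalamus. The meaning of the pool letters is not given in the sources used here. The log2 fold changes in males were -0.28 ± 0.30, -0.38 ± 0.34 and -0.08 ± 0.39 in the OB-labelled libraries, the Tel and the hypothalamus (SE, edgeR, adjusted p between 0.798 and 0.961), and the 95% interval in the libraries labelled OB ran from -0.87 to 0.30.

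**Figure D2:**
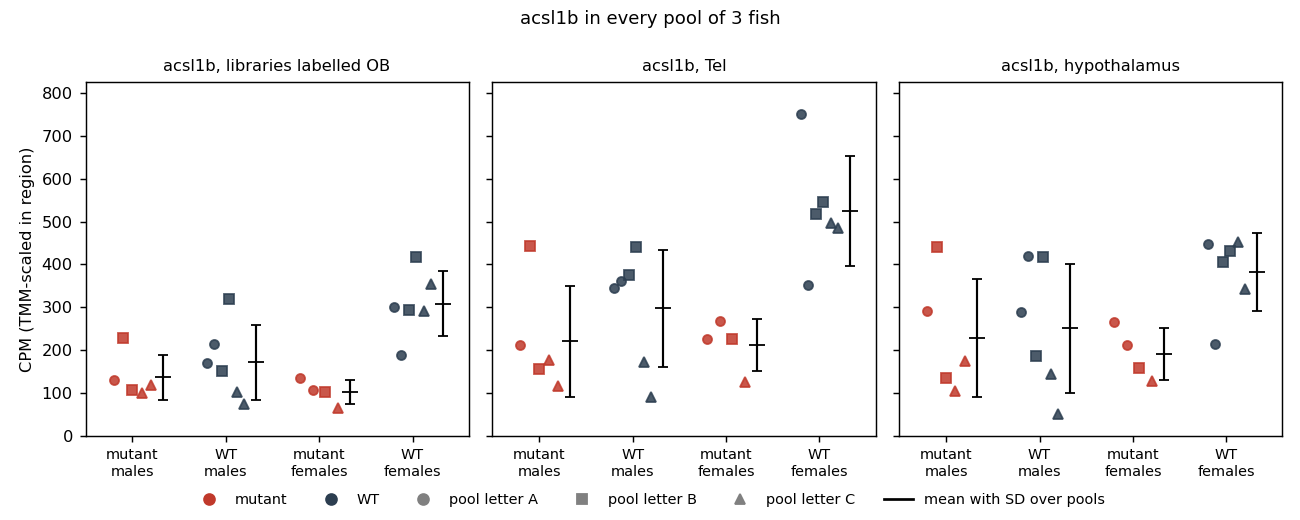
acsl1b in every pool, in CPM scaled by TMM within the region, with the groups on the horizontal axis and a panel for each region. Points are pools of 3 fish, shaped by the letter of the pool code, and bars give the mean with the SD over pools. The mutant female pools at 65.0 to 135 CPM lie below all WT female pools in the libraries labelled OB, and the male groups overlap in each panel.

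Whether the difference between genotypes itself differed between females and males was tested as an interaction. For acsl1b the effect in females minus the effect in males was -1.36 ± 0.50 on the log2 scale for the libraries labelled OB (SE, edgeR, unadjusted p = 0.0108, adjusted p = 0.283), -1.02 ± 0.53 for the Tel (adjusted p = 0.752) and -0.98 ± 0.58 for the hypothalamus (adjusted p = 0.686). None of the 7 tests of this kind on the 3 members was called by edgeR or by DESeq2, and 1 had an unadjusted p of 0.05 or less. The call rule gave 0.199% of genes for the libraries labelled OB, 0.496% for the Tel and 2.04% for the hypothalamus. A difference between the sexes in the response of acsl1b was therefore not shown.

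Within pool letters, acsl1b was lower in mutant than in WT females in 9 of 9 combinations of letter and region. On the log2(CPM + 1) scale the differences for the letters A, B and C were -0.98, -1.77 and -2.29 in the libraries labelled OB, -1.06, -1.23 and -1.95 for the Tel, and -0.39, -1.40 and -1.61 for the hypothalamus. Each combination held 1 or 2 mutant pools, and the 3 regions are not independent where equal codes mean the same fish. In males the differences ranged from -0.74 to 0.66 and were above 0 for the letter C in each region.

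Cell composition can move such values, and in bulk tissue fewer cells of a type and less RNA per cell cannot be told apart. In the libraries labelled OB of mutant females, the summed radial glia markers (8 genes) lay at 1095 to 5612 CPM against 3195 to 17694 CPM in WT females. Nearly all of that sum was glula, the glutamine synthetase of glia, at 792 to 5268 CPM (median 2787) in mutant females and 2880 to 17399 CPM (median 11459) in WT females. The gene glula fell there (log2 fold change -1.94 ± 0.54, SE, edgeR, adjusted p = 0.0498), the only one of 5 tested radial glia markers that was called. Without glula the radial glia sum was 303 to 352 CPM in mutant females and 229 to 343 CPM in WT females. Over all libraries labelled OB the defining marker gfap had a median of 0 CPM.

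Sums of other marker lists were taken in the same libraries. The skeletal muscle markers (10 genes) summed to 81.2 to 277 CPM in mutant females and to 51.3 to 107 CPM in WT females. Their medians were 216 CPM in mutant and 70.1 CPM in WT females, and 226 CPM in mutant and 75.3 CPM in WT males. The microglia and macrophage markers (8 genes) summed to 19404 to 26001 CPM in mutant females and to 13733 to 20722 CPM in WT females, with 0 of 6 tested genes called. The epithelial genes summed to 5358 to 9338 CPM in mutant females and to 9134 to 17667 CPM in WT females, and 2 of the 6 tested genes fell, cdh1 (log2 fold change -2.59 ± 0.45, SE, edgeR, adjusted p = 0.00133) and cldnb (-2.69 ± 0.40, adjusted p = 0.000276). Medians of cdh1 were 425 CPM in mutant and 2674 CPM in WT females, and those of cldnb 458 and 2916 CPM. The other epithelial genes were not called, with epcam at -0.25 ± 0.26, krt4 at -0.20 ± 0.33, krt5 at -0.56 ± 0.35 and cldnh at 0.39 ± 0.19. In the hypothalamus glula also fell in mutant females (log2 fold change -1.46 ± 0.29, SE, edgeR, adjusted p = 0.00206), with medians of 5061 CPM in mutant females and 17021 CPM in WT females. The Tel showed medians of 7216 CPM in mutant females and 16717 CPM in WT females (-1.05 ± 0.32, adjusted p = 0.0889). Without glula the radial glia sums lay close in these regions. Their medians in the hypothalamus were 6172 CPM in mutant and 6611 CPM in WT females. In the Tel they were 8150 CPM in mutant and 8065 CPM in WT females. The part of these markers in the acsl1b difference was not tested.

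Between the sexes acsl1b was not called in either genotype. For WT males over WT females the log2 fold change was -0.83 ± 0.27 in the libraries labelled OB (SE, edgeR, unadjusted p = 0.00518, adjusted p = 0.999), -0.87 ± 0.31 for the Tel (unadjusted p = 0.00959) and -0.62 ± 0.35 for the hypothalamus. For mutant males over mutant females it was 0.53 ± 0.42, 0.15 ± 0.43 and 0.36 ± 0.46 in the same order of regions. Of 14 tests between the sexes on the 3 members, 0 were called by edgeR, by DESeq2 or by limma on rlog values, and 2 had an unadjusted p of 0.05 or less. The share of all genes called between the sexes was 2.26%, 1.19% and 2.38% in mutants (1.84% of genes higher in males in the libraries labelled OB) and 0.0885%, 0.0451% and 0.0155% in WT fish (0.0664% higher in males), in the same order.

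Regions were compared with the pool code as a block. In WT fish acsl1b was lower in the libraries labelled OB than in the Tel (log2 fold change -0.55 ± 0.11, SE, edgeR, adjusted p = 1.69e-05) and lower in the hypothalamus than in the Tel (-0.40 ± 0.10, adjusted p = 0.00297), both under the 1.5-fold threshold and so not called. In mutants the libraries labelled OB were lower than the Tel (-0.39 ± 0.17, adjusted p = 0.0382) and the hypothalamus (-0.40 ± 0.16, adjusted p = 0.0277), again under 1.5-fold. The hypothalamus over the Tel of mutants gave 0.00 ± 0.16. The effect of genotype in the libraries labelled OB minus its mean effect in the other regions was -0.56 ± 0.29 in females and -0.07 ± 0.24 in males (SE, edgeR with the pool as a block, adjusted p = 0.802 and 0.987). So acsl1b gave no call for a genotype difference that varied by region. By that interaction 0.0864% of the genes were called in females and 0% in males.

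The copy acsl1a had a different pattern, given here without a test because it was chosen for it. Its largest difference between genotypes was in the hypothalamus of males, with 169, 153, 260, 66.4 and 143 CPM in mutant males (A1, B1, B2, C1 and C2), against 47.0 to 84.8 CPM with a median of 75.1 CPM in WT males. Of the 5 mutant pools 4 lay above every WT pool, and C1 lay below the WT median. Mutant males averaged 158 ± 69.1 CPM (SD, n = 5), against 72.0 ± 14.0 CPM (SD, n = 6) for WT males, and the fitted log2 fold change was 1.08 ± 0.24 (SE). Without mutant pool A1, which stood apart in cyp19a1b, it was 1.04 ± 0.26.

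The fitted difference in males had the opposite sign in the libraries labelled OB, where only mutant pools B1 and C1 kept their side of the WT median. There acsl1a stood at 54.6, 148, 53.7, 43.1 and 28.8 CPM in mutant males, against 65.4 to 210 CPM with a median of 104 CPM in WT males. Of the 5 mutant pools 4 lay below every WT pool, and pool B1 lay within the WT range. The log2 fold change was -0.75 ± 0.37 (SE), and -1.42 ± 0.38 without pool B1. In the Tel, with 170, 231, 151, 96.5 and 149 CPM in mutant males against 98.0 to 166 CPM with a median of 143 CPM in WT males, it was 0.13 ± 0.20. The effect in the libraries labelled OB minus the mean effect in the Tel and the hypothalamus was -1.38 ± 0.31 in males, which is the kind of value acsl1a was chosen for.

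In females the fitted differences of acsl1a varied less between regions than in males. The sexes were not compared on that variation. The log2 fold changes were -0.64 ± 0.51 in the libraries labelled OB, -0.61 ± 0.26 for the Tel and -0.14 ± 0.28 for the hypothalamus (SE), and the effect in the libraries labelled OB minus that in the other regions was -0.36 ± 0.42. In the libraries labelled OB the mutant female pools stood at 27.1, 73.0, 29.2 and 92.9 CPM, on 1 to 13 UMIs each, against 55.0 to 172 CPM with a median of 82.2 CPM in WT females. In the Tel they stood at 226, 146, 84.8 and 110 CPM, against 167 to 210 CPM with a median of 187 CPM in WT females. Pool A1 lay above every WT pool and the other 3 below all of them, with 6 to 21 UMIs in the mutant libraries and 30 to 113 in the WT libraries. The hypothalamus of females gave 68.5 to 88.4 CPM in mutants and 60.3 to 119 CPM in WT fish.

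Side by side, the log2 fold changes in the hypothalamus of males were 1.08 ± 0.24 for acsl1a, which was chosen for such values, and -0.08 ± 0.39 for acsl1b (SE), and the copies were not tested against each other. In the Tel of females both had negative values, -0.61 ± 0.26 for acsl1a and -1.40 ± 0.41 for acsl1b. Reads with several places of origin were not counted by the authors, so a read that maps to both copies counts for neither. How many such reads each copy lost is not known. The hypothalamus over the Tel gave acsl1a a log2 fold change of -0.23 ± 0.21 in mutants and -1.04 ± 0.15 in WT fish (SE). These values too belong to the pattern it was chosen for.

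The acsl3 pair, whose mammalian counterpart serves lipid droplet growth, was carried by acsl3b alone. acsl3b had no call between genotypes. Its log2 fold changes in mutant over WT females were -0.36 ± 0.34 in the libraries labelled OB, 0.51 ± 0.42 for the Tel and 0.05 ± 0.33 for the hypothalamus, and in males -0.34 ± 0.25, 0.31 ± 0.33 and 0.04 ± 0.30 (SE, edgeR, adjusted p between 0.699 and 0.985). The value in the Tel of females rested on mutant pool A2, without which it was -0.02 ± 0.43, and it was -0.05 ± 0.45 with low-total libraries left out. The 95% interval was narrowest in males of the libraries labelled OB, where it ran from -0.84 to 0.15. Group means lay between 51.4 and 135 CPM in mutants and between 60.3 and 99.6 CPM in WT fish.

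Across regions acsl3b was called in mutants only. In mutants it was lower in the libraries labelled OB than in the Tel (log2 fold change -0.79 ± 0.24, SE, edgeR, adjusted p = 0.00415) and than in the hypothalamus (-0.59 ± 0.24, adjusted p = 0.0251), with medians of 49.1, 94.3 and 82.3 CPM in the 3 regions. In WT fish the same comparisons gave -0.13 ± 0.17 (adjusted p = 0.502) and -0.26 ± 0.15 (adjusted p = 0.119), with medians of 78.6, 82.4 and 93.4 CPM. The test of that difference, the effect of genotype in the libraries labelled OB minus the mean of the others, gave -0.80 ± 0.45 in females (edgeR, adjusted p = 0.821) and -0.57 ± 0.33 in males (adjusted p = 0.828), so the genotypes were not shown to differ in it. Region calls were the rule for genes in general, at 59.2% for the libraries labelled OB over the Tel and 60.1% for those over the hypothalamus in mutants, and 59.3% and 60.8% in WT fish. The call against the hypothalamus, at 1.51-fold, was lost without the pool as a block (adjusted p = 0.0669), with limma-voom (0.0572), with low-total libraries left out (0.0707), and without mutant female pool A1 (0.0346, under 1.5-fold) or A2 (0.0639) or mutant male pool B1 (0.177) or B2 (0.0436, under 1.5-fold).

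The other copy, acsl3a, was close to absent. It had 0 to 4 UMIs a library, 0 in 51 of the 63 libraries, and 22 UMIs in all. In mutants 4 UMIs were counted over the 3 regions and 0 of 1383977 in the Tel, which allows up to 2.17 CPM (3 counts over these libraries, counting error only). In WT fish there were 18 UMIs in all, with 4 of 4207983 in the Tel. No difference was detectable at this depth.

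The acsl4 pair is the one known in mammals for handling arachidonic acid. acsl4a was chosen because mutants had more of it in the Tel and the hypothalamus and less of it in the libraries labelled OB, and it is described without a test. In the hypothalamus of males it stood at 197, 255, 197, 199 and 222 CPM in mutants (A1, B1, B2, C1 and C2), against 93.4 to 143 CPM with a median of 136 CPM in WT fish. All 5 mutant pools lay above every WT pool. Pools lay fully apart, in either direction, for 2.99% of the genes tested there. Since acsl4a was chosen for such a difference, that share does not measure how unusual it is. The log2 fold change was 0.76 ± 0.23 (SE), and 0.80 ± 0.25 without mutant pool A1.

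In the hypothalamus of females acsl4a stood at 287, 295, 169 and 340 CPM in mutants (A1, A2, B1 and C1), against 94.7 to 254 CPM with a median of 176 CPM in WT fish. Pool B1 was the only one of the 4 within the WT range, and the log2 fold change was 0.67 ± 0.24 (SE). In the Tel of females the values were 226, 292, 226 and 378 CPM in mutants, against 118 to 259 CPM with a median of 183 CPM in WT fish. All 4 mutant pools lay above the WT median and 2 above every WT pool, with a log2 fold change of 0.69 ± 0.30. These mutant values rest on 6 to 72 UMIs a library and the WT values on 31 to 80, so few molecules can shift a pool's place. The Tel of males gave 205, 237, 142, 407 and 329 CPM in mutants, against 121 to 270 CPM with a median of 171 CPM in WT fish. There the 2 pools with the letter C were the highest, and the log2 fold change was 0.62 ± 0.26, or 0.60 ± 0.27 without WT pool A1 and 0.78 ± 0.25 without mutant pool B2.

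The fitted sign was the opposite in both sexes in the libraries labelled OB, with a value nearer 0 in males. acsl4a stood at 81.2, 112, 87.5 and 83.6 CPM in mutant females, against 111 to 214 CPM with a median of 133 CPM in WT females, and 3 of the 4 mutant pools lay below every WT pool. The mutant female values rest on 3 to 20 UMIs a library and the WT female values on 21 to 72. In males acsl4a stood at 109, 107, 62.6, 81.9 and 111 CPM in mutants, against 91.3 to 179 CPM with a median of 110 CPM in WT fish. Of the 5 mutant male pools 2 lay below every WT pool. The log2 fold changes were -0.61 ± 0.28 in females and -0.26 ± 0.22 in males (SE). Leaving out 1 library at a time gave -0.80 to -0.42 in females and -0.34 to -0.09 in males. The effect in the libraries labelled OB minus the mean effect in the other regions was -1.44 ± 0.30 in females and -0.97 ± 0.24 in males, again the kind of value acsl4a was chosen for.

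**Figure D3:**
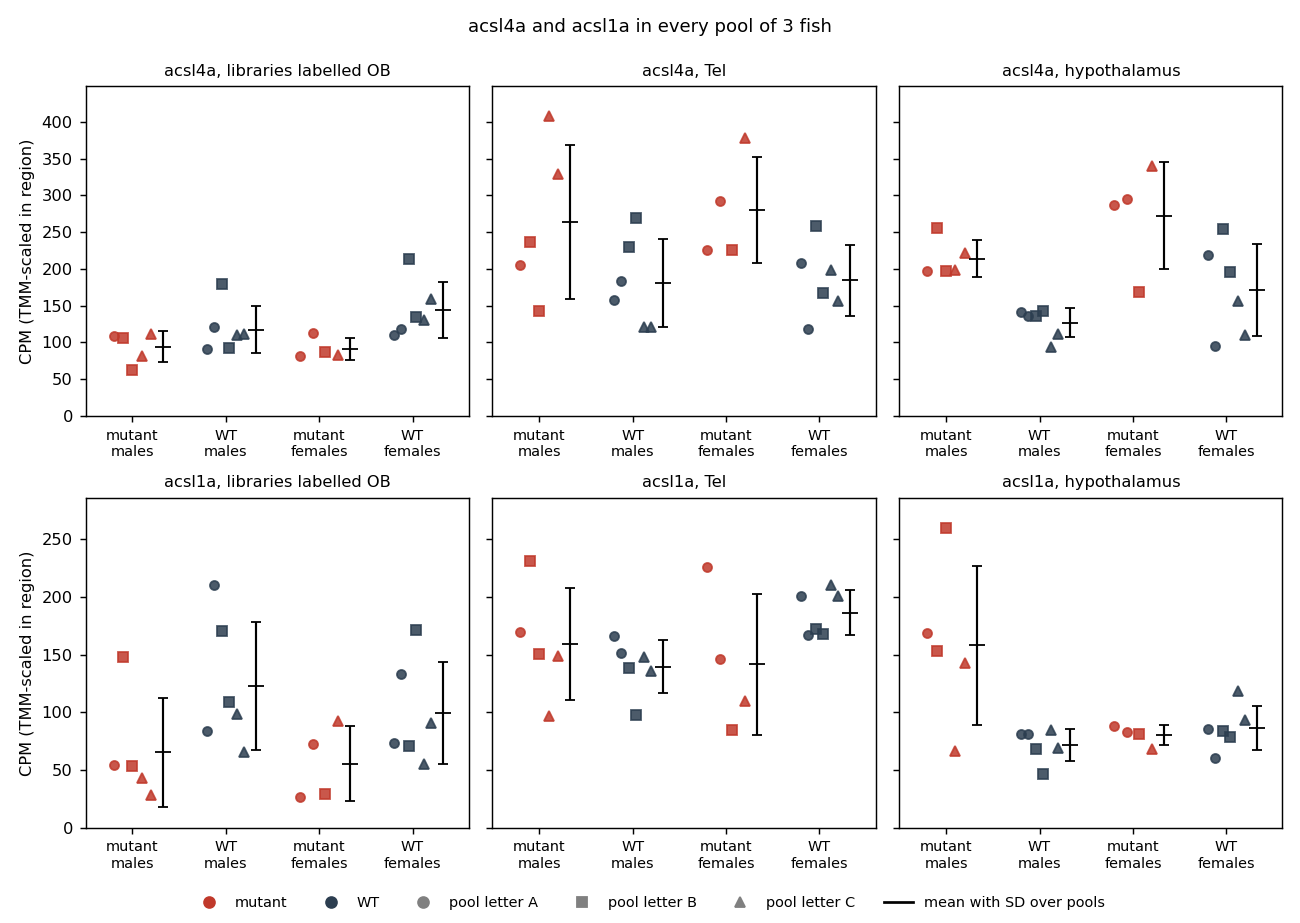
acsl4a (upper row) and acsl1a (lower row) in every pool, in CPM scaled by TMM within the region, with a column of panels for each region. Points are pools of 3 fish, shaped by the letter of the pool code, with the mean and the SD over pools beside each group. In the hypothalamus all 5 mutant male pools of acsl4a lie at 197 CPM or more and all WT male pools at 143 CPM or less, and for acsl1a 4 of 5 mutant male pools lie above the highest WT pool at 84.8 CPM.

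Seen by region, acsl4a was nearly level in WT fish and uneven in mutants, which restates the pattern it was chosen for. The libraries labelled OB over the Tel gave a log2 fold change of -1.11 ± 0.17 in mutants and -0.18 ± 0.12 in WT fish, and over the hypothalamus -0.92 ± 0.17 in mutants and 0.06 ± 0.11 in WT fish (SE). The hypothalamus over the Tel gave -0.19 ± 0.15 in mutants and -0.24 ± 0.11 in WT fish. Without mutant male pool A1 the first of these mutant values was -1.28. On the scale over all libraries the medians were 94.0 CPM in mutants and 140 CPM in WT fish in the libraries labelled OB, 222 and 166 CPM for the Tel, and 207 and 134 CPM for the hypothalamus.

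Within pool letters the acsl4a differences did not all have the same sign. In the Tel of males the log2 difference of mutant minus WT was 0.27 for the letter A, -0.43 for B and 1.59 for C. In the hypothalamus of females it was 1.01, -0.40 and 1.37, while in the hypothalamus of males it was 0.50, 0.68 and 1.03. The libraries labelled OB gave -0.26, -0.95 and -0.78 for females and 0.06, -0.65 and -0.21 for males. For acsl1a in the hypothalamus of males the letters gave 1.04, 1.80 and 0.34, and in the libraries labelled OB -1.27, -0.60 and -1.17.

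The second copy, acsl4b, had its highest values in the libraries labelled OB in both genotypes. The libraries labelled OB over the Tel gave a log2 fold change of 2.75 ± 0.44 in mutants and 2.57 ± 0.30 in WT fish (SE). Over the hypothalamus it was 3.49 ± 0.44 in mutants, or 4.16 without mutant male pool B1, and 2.85 ± 0.26 in WT fish. Without mutant male pool B2 acsl4b did not pass the low-count filter in mutants. Counts were 4 to 56 UMIs in the libraries labelled OB and 0 to 8 UMIs in each Tel and hypothalamus library. Since acsl4b passed the low-count filter through the libraries in which it was high, a difference was built in and no test is given, and the library medians of 61.3 CPM in mutants and 58.9 CPM in WT fish, against at most 9.48 CPM in the other regions, are the plainer description. The epithelial, macrophage and olfactory sensory neuron transcripts listed above were also higher in the libraries labelled OB, and their part was not tested.

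Between genotypes acsl4b gave no call. It stood at 108, 56.2, 72.9 and 65.0 CPM in mutant females, against 24.5 to 79.3 CPM with a median of 52.0 CPM in WT females of the libraries labelled OB (log2 fold change 0.37 ± 0.35, SE, edgeR, adjusted p = 0.779). In males it stood at 32.8, 41.3, 62.6, 43.1 and 49.4 CPM in mutants, against 19.4 to 56.8 CPM with a median of 43.2 CPM in WT fish (0.03 ± 0.28). The 95% interval in males ran from -0.52 to 0.57. The copies acsl4a and acsl4b therefore had fitted values on different sides of 0 in the libraries labelled OB of females, -0.61 ± 0.28 and 0.37 ± 0.35, and this pair of values was not tested against each other.

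acsl5, the intestinal member in mammals, had 0 to 2 UMIs a library and was never tested. It had 8 UMIs in mutants and 35 in WT fish, and in the hypothalamus 2 of 9 mutant libraries and 11 of 12 WT libraries had any. The WT libraries of that region were also deeper, with 7397087 UMIs in all against 1872300 in the mutants.

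**Figure D4:**
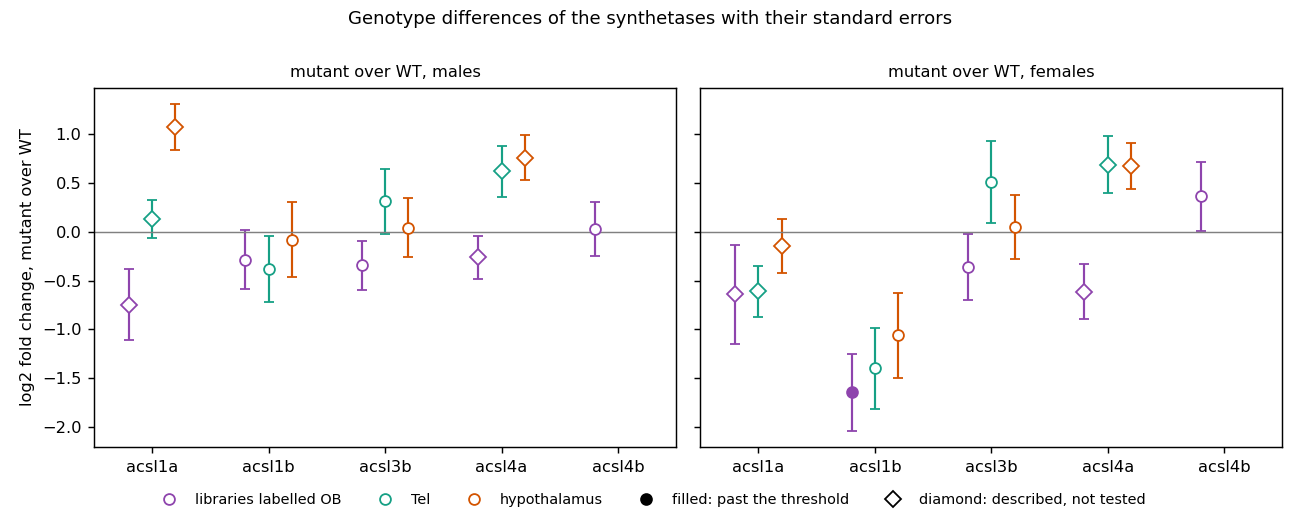
Fitted log2 fold changes of mutant over WT fish with their standard errors, for males (left) and females (right), for the members that passed the low-count filter. Colours give the region, diamonds are acsl1a and acsl4a, which were chosen for these values and not tested, and the filled point is past the threshold. The filled point is acsl1b in females of the libraries labelled OB, at -1.64 ± 0.40, and the values of acsl1b in males lie between -0.38 and -0.08.

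The transcripts whose group means ran most like those of the chosen members were found over the 12 group means of log2 CPM, among 3310 genes past the filter in all 3 regions. For acsl4a they were kpna4, an importin, with Pearson's r of 0.903, rab3aa, a synaptic vesicle GTPase (0.897), and rab7a, a late endosome GTPase (0.889). For acsl1a they were patl1, an mRNA decay factor (0.883), atp6v1ba, a subunit of the vacuolar proton pump (0.879), and stx12, an endosomal syntaxin (0.844). Within the family, acsl3b followed acsl4a with r = 0.877 and acsl1b followed acsl4a with r = 0.265. The 12 points share pool codes across regions, and these values are a description of likeness only.

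Genes that act before and after the synthetases were taken as 8 lists (136 genes, of which 120 had a row): other acyl-CoA synthetases, fatty acid and acyl-CoA binding proteins, thioesterases, the carnitine shuttle with mitochondrial beta-oxidation, peroxisomal oxidation, fatty acid synthesis with elongation and desaturation, acyltransferases, and lipid peroxide control. Few of them were called between genotypes. In females 0 of 44 tested genes were higher and 1 lower in mutants in the libraries labelled OB, 0 of 50 were called in the Tel, and 0 of 73 were higher and 2 lower in the hypothalamus, against 2.35%, 2.41% and 3.06% of all genes lower in mutants and 2.59%, 2.46% and 3.56% called either way. In males 0 of 44, 0 of 50 and 2 of 73 were called, the last as 1 higher and 1 lower, against 0.0221%, 0.0225% and 1.93% over all genes, the last as 0.557% higher and 1.38% lower. The median log2 fold change of the lists in females was 0.04, 0.02 and 0.09 in the libraries labelled OB, the Tel and the hypothalamus, and that of all genes 0.01, -0.00 and 0.04.

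The called genes were these. acbd3, an acyl-CoA binding domain protein of the Golgi, fell in mutant females in the libraries labelled OB (log2 fold change -1.51 ± 0.41, SE, edgeR, adjusted p = 0.0428) and in the hypothalamus (-2.05 ± 0.39, adjusted p = 0.00134), where its effect in females minus that in males was also called (-2.28 ± 0.50, adjusted p = 0.0106). The elongase gene elovl1b fell in the hypothalamus of mutant females (-1.18 ± 0.26, adjusted p = 0.00653). In the hypothalamus of mutant males scp2a, which codes for the peroxisomal sterol carrier and thiolase protein, rose (1.02 ± 0.27, adjusted p = 0.0464) and the ferritin gene fth1a fell (-0.69 ± 0.16, adjusted p = 0.0255). Between the sexes of mutants, males over females, acbd3 (1.86 ± 0.40, adjusted p = 0.00717) and elovl1b (1.07 ± 0.27, adjusted p = 0.0283) were higher in males in the hypothalamus, and acaca, the acetyl-CoA carboxylase, was lower in males in the libraries labelled OB (-1.60 ± 0.33, adjusted p = 0.0108). No other gene of the lists was called between genotypes or sexes, or for an interaction of genotype with sex or region.

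Between regions many of them differed, as most genes did. Some may have passed the low-count filter only through the region where they were high. The counts below are therefore a description and not a test. In WT fish 15 of 73 were higher and 21 lower in the libraries labelled OB than in the Tel (49.3%, against 59.3% of all genes, 29.6% in each direction). The desaturase gene fads2 (-4.80 ± 0.20) and the elongase gene elovl7a (4.96 ± 0.24) were the extremes of the synthesis list, in which 2 of 13 tested genes were higher and 6 lower. Of the 9 tested binding proteins 1 was higher and 5 were lower, among them the brain fatty acid binding proteins fabp7a (-4.47 ± 0.13) and fabp7b (-3.70 ± 0.43). Of 4 tested synthetases outside the family 1 was called, acsf2 (2.27 ± 0.31), and of 3 thioesterases 2 were lower, them4 (-2.82 ± 0.31) and acot7 (-1.12 ± 0.37).

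In the same comparison 2 of 17 tested mitochondrial oxidation genes were higher and 2 lower, led by acadvl (0.99 ± 0.22) and eci2 (-0.94 ± 0.24), and 1 of 7 peroxisomal genes was called, scp2a (0.81 ± 0.29). Acyltransferases split into 3 higher and 3 lower of 9, with lpcat1 (2.92 ± 0.30) and dgat1a (-3.69 ± 0.29) at the ends. Of 11 genes of peroxide control 5 were higher and 3 lower, and the lipoxygenase gene alox12 (2.97 ± 0.28) and the ferritin gene fthl27 (2.32 ± 0.15) had the largest positive values of that list. All of these are log2 fold changes with SE, and each was called by edgeR. As with acsl4b, a listed gene may have passed the low-count filter only through the libraries in which it was high. For such a gene a difference was built in. Which genes did so was not checked, and these values are given as a description.

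The hypothalamus over the Tel of WT fish called 9 of 73 list genes higher and 2 lower (15.1%, against 15.7% of all genes, 9.75% higher and 5.94% lower). The elongase genes elovl7a (2.72 ± 0.28) and elovl1b (1.74 ± 0.12) led 4 of 13 synthesis genes that were higher in the hypothalamus, and 0 of that list were lower. The fatty acid transporter gene slc27a1a (0.68 ± 0.19), the binding protein gene fabp2 (3.30 ± 0.35), acot7 (0.76 ± 0.27) and the amino acid transporter subunit gene slc3a2a (0.93 ± 0.14) were also higher in the hypothalamus, and fabp7b (-2.56 ± 0.33) and the isomerase gene eci1 (-0.59 ± 0.23) were lower. In mutants 5 of 49 list genes were higher in the hypothalamus than in the Tel and 0 lower, against 12.4% of all genes called. The limit set by the low-count filter holds for these comparisons too.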

How the data were processed

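The authors deposited UMI counts for 15418 genes in 63 BRB-seq libraries, each from 1 region of 3 pooled fish. The authors kept reads that mapped to 1 place and counted distinct UMIs per gene. The submitters' processing notes name BWA 0.7.4.4 and the genome build danRer11. The deposited counts were used as they are, and 365 genes had no count.

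Each region's 21 libraries were fitted in 1 model of 4 groups with edgeR 4.0.16 (R 4.3.3), with TMM scaling and edgeR's low-count filter (minimum count 10), which left 4520, 4437 and 6463 genes in the libraries labelled OB, the Tel and the hypothalamus. Regions were compared within WT fish (7057 genes) and within mutants (4769), and genotype by region within females (5790) and males (5921), with the pool as a block, since equal pool codes of a sex and genotype were read as the same pool of fish, which the labels do not state (deviations of same-coded pools correlated between regions at 0.0468 to 0.555). The quasi-likelihood test was used with Benjamini-Hochberg adjustment over all genes tested. A call needs an adjusted p of 0.05 or less and, except for interactions, at least 1.5-fold. Replicates are pools, and the fit treats them as separate samples. The code was tested on simulated data.

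The genes named are the members, up to 2 called genes of each list with the largest log2 fold change in a comparison, and the 3 genes most like acsl1a and acsl4a. The members and lists were chosen with earlier results of these data known, and genes named in the check of labels were chosen after their values were seen. Marker lists were radial glia, oligodendrocytes, microglia and macrophages, neurons, endothelium, red blood cells, skeletal muscle, olfactory sensory neurons, hypothalamus, telencephalon and epithelium, and besides glula and the epithelial cdh1 and cldnb no gene of these lists was called between genotypes.

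Alternatives were DESeq2 1.42.0, limma 3.58.1 (rlog values or voom), other scalings, filters, blocks and sample sets, thinning, and leaving out low-total libraries or each pool in turn. Depth of 21444 to 1033008 UMIs sets the precision. No libraries of the same region, sex and genotype held identical values (138 pairs compared), and pairs from different groups were not compared. Coordinates were left out.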

Additional observations from a re-analysis of the deposited data

Results flagged for a closer look

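Of 52 groups of 4 to 6 pools, 5 held a pool that lay far from the others by Dixon's criterion, about 2 or 3 being what chance gives at 1 group in 20. In the libraries labelled OB, mutant male pool B1 stood at 148 CPM of acsl1a, against 28.8 to 54.6 CPM in the other mutant male pools. The same library stood at 228 CPM of acsl1b, against 99.1 to 131 CPM in the others. In the Tel, mutant female pool A2 stood at 292 CPM of acsl3b, against 68.2 to 104 CPM in the other mutant female pools. WT female pool A1 of the Tel stood at 181 CPM of acsl3b, against 47.9 to 91.7 CPM in the other WT female pools. In the libraries labelled OB, WT male pool B1 stood at 179 CPM of acsl4a, against 91.3 to 121 CPM in the other WT male pools.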

How the results depend on the processing

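Of 14 genotype tests on the 3 tested members that were not picked, 1 was called. The count was 2 without the low-count filter, 0 with at least 10 counts in every library (of the 3 members only acsl1b in the hypothalamus was then left to test), 3 with only the groups compared in the fit, 2 with the pool letter as a block, 0 with thinned counts, 0 with low-total libraries left out and 2 with DESeq2. Library totals, DESeq2's size factors, all 63 libraries in 1 fit and limma on rlog values gave 1 each. Leaving out each pool gave 0 to 2. With the pool code as a replicate block the count was 2. Within a region, deviations of same-coded pools correlated between -0.233 and 0.436, with means of 0.0537 to 0.210 over pairs of groups. Whether equal codes of different groups share more than a number is therefore not settled. Calls between sexes, for genotype by sex and for genotype by region stayed at 0 under the alternatives run (0 without each pool). Region calls in WT fish were 2 (2 to 3 under alternatives, 2 to 3 without each pool), both of acsl4b. In mutants they were 4 (3 to 6, and 1 to 4 without each pool), 2 of them of acsl4b. The 1 came without mutant male pool B2, where acsl4b did not pass the filter. Since acsl4b passed the filter through the libraries labelled OB, its region calls were built in. They and their steadiness count neither as a test nor as support. The fit with only the groups compared gives no value for interactions. The log2 fold change of acsl1a in the Tel of females was -0.61 and turned to 0.060 with thinned counts. That of acsl3b there was 0.51, and -0.02 without mutant pool A2. Of 2724 values, 2605 kept direction and side of the threshold or, for acsl1a and acsl4a, moved by less than the SD between pools. Values of these genes could turn sign and still be counted, as that of acsl1a between the sexes of mutants in the libraries labelled OB did. It was 0.15, and -0.55 ± 0.52 (SE) without mutant male pool B1. Scaling by library totals moved the median of all genes to 0.18 in females of the Tel and 0.20 in females of the hypothalamus, and the share of lower calls to 82.1% and 63.5%, against 98.2% and 86.1%. Mutant libraries hold the fewest counts, which limits acsl3a, acsl5 and acsl4b outside the libraries labelled OB.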
